A study of Rattus norvegicus with 30 samples.

Results

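Livers of rats fed freeze-dried tofu as the protein source (T20) were compared with livers of rats fed casein to which isoflavones had been added (CI), so that the 2 diets differed in the protein source at a matched isoflavone level. The comparison used the 5 arrays titled as tofu diet and the 5 titled as casein plus isoflavone diet, 10 of the 30 arrays of the series. Every animal was a male Sprague-Dawley rat that arrived at 4 weeks of age, was adapted for 5 days and then ate its diet for 14 days with 200 g of protein per kg of diet. In T20 all of that protein came from tofu, in CI and in the casein diet without isoflavone (C) all of it came from casein, and in the soy protein diet with isoflavone (SI) all of it came from soy protein; CI and SI carried an isoflavone mixture set to the T20 level. Each animal gave 1 array, and the labels call the 5 arrays of a diet biological replicates. The labels say nothing about fat, fibre or plant sterols in the diets, so a difference between T20 and CI cannot be assigned to the protein itself.

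Liver makes fatty acids from citrate through ATP citrate lyase, acetyl-CoA carboxylase and fatty acid synthase, and stores them as triglyceride in lipid droplets. It also disposes of sterols, either by pumping them into bile or by turning cholesterol into bile acids, and it adjusts the enzymes of amino acid and xenobiotic metabolism to what is eaten. Isoflavones are plant polyphenols of soybean with weak estrogen-like activity, and tofu contains them together with soy protein.

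Values are intensities on a log2 scale, 1 per probe set and array, where 1 unit is a doubling of the intensity. The unstated reference level of the deposited normalization means that a fold is relative to that scale. A gene was represented by 1 probe set, and differences are T20 mean minus CI mean with the standard error (SE) of the limma fit; a gene passed at an adjusted p under 0.05. Array medians ran from 227.25 to 254.7 in CI and from 229.1 to 249.75 in T20, and the 3'/5' signal ratio of the *Gapdh* control from 1.04 to 1.14 and from 1.04 to 1.23. The same ratio of the beta-actin control was wider, from 1.84 to 2.89 in CI and from 1.91 to 2.83 in T20. CI replicate 5 had the 2.89. Hepatocyte markers had summed intensities of 505098 to 566368 in CI and 487727 to 568677 in T20. Labels of C replicate 3 and CI replicate 3 give the same normalization parameters; with both left out 367 probe sets passed against 394 below, and genes whose call that ended are named with the value.

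Of 18625 probe sets, 394 passed (2.12%), 201 higher in T20 (1.08%) and 193 lower (1.04%), and 3005 had an unadjusted p under 0.05. By gene, 241 of 10699 passed (2.25%): 151 were higher in T20 (1.41%) and 90 lower (0.841%), and the median difference over all genes was 0.01. In 166 of those 241 genes every T20 liver lay beyond every CI liver; over all genes that held for 391 (3.65%), 202 above (1.89%) and 189 below (1.77%). The split between higher and lower depended on scaling, with 245 higher and 110 lower probe sets after each array was centred on its median. Leaving out CI replicate 4 gave 176 probe sets, leaving out T20 replicate 1 gave 260, and the 10 arrays fitted alone gave 131. Of the 52 passing genes named by rule, 24 did not pass in the fit of the 10 arrays alone (adjusted p from 0.0509 to 0.175): *Cyp7a1*, *Inmt*, *Alox15*, *Nr1i3*, *Fasn*, *Sult2a6*, *Scd*, *Acly*, *Smc4*, *Elovl6*, *Mttp*, *Acot2*, *Decr1*, *Cyp2d4*, *Gstm2*, *Oat*, *Gpt*, *Glul*, *Nupr1*, *Slc6a9*, *Irs3*, *Clock*, *Sdf2l1* and *Frmpd2*.

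**Figure D1:**
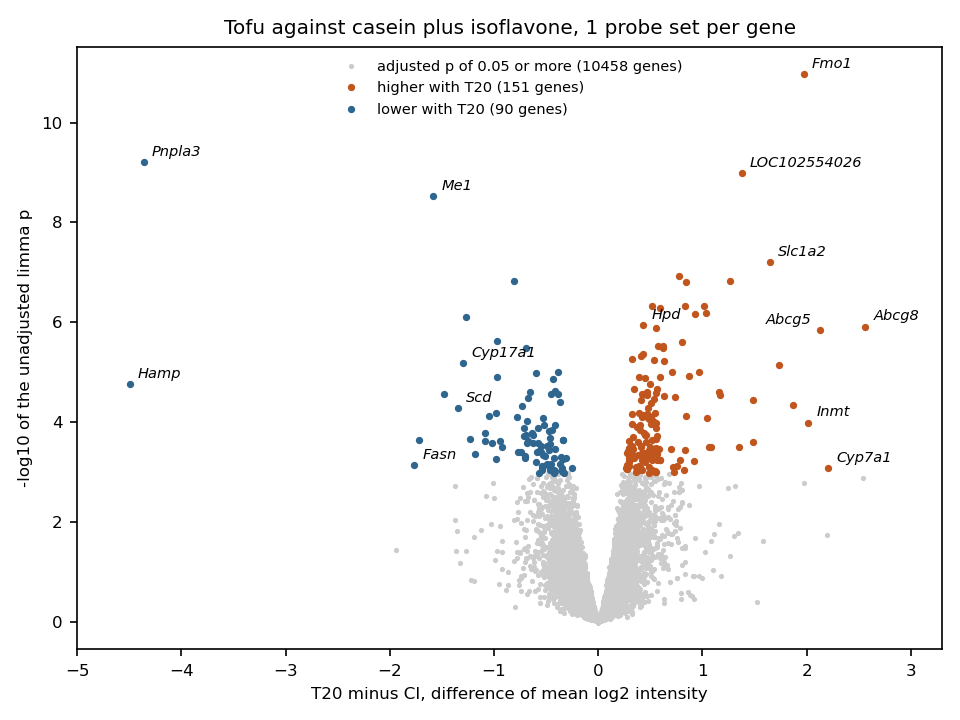
Each point is 1 gene; the horizontal axis is the T20 minus CI difference of mean log2 intensity and the vertical axis -log10 of the unadjusted limma p, with 151 genes that passed as higher in orange and 90 that passed as lower in blue. *Hamp* and *Pnpla3* stand apart on the left with differences of -4.50 and -4.36, and *Abcg8* lies farthest to the right among the coloured points, at 2.56.

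Genes of fatty acid synthesis were lower in tofu-fed livers. In a list of fatty acid synthesis and NADPH supply, 7 of 15 measured genes fell and 0 rose, with a median difference of -0.55, against 0.841% of all genes lower and an all-gene median of 0.01. The count was 4 without CI replicate 4 and 3 when the 10 arrays were fitted alone. *Me1*, the cytosolic malic enzyme that supplies NADPH, had values of 12.07, 12.73, 13.02, 12.51 and 12.31 in CI replicates 1 to 5 and of 11.28, 10.80, 10.998, 10.87 and 10.76 in T20. All T20 livers lay below all CI livers, and the difference was -1.59 ± 0.19 (SE), or 3.00-fold (adjusted p = 1.09e-05). A second probe set of *Me1* had a difference of -2.00.

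*Acaca*, which encodes acetyl-CoA carboxylase, the enzyme that commits carbon to fatty acids, stood at 11.96, 11.77, 12.59, 12.49 and 11.62 in CI and at 11.02, 11.11, 11.38, 11.32 and 10.76 in T20. Here too the groups did not overlap, and the gene fell by 0.97 ± 0.18 on the log2 scale (adjusted p = 0.00378). For *Scd*, the stearoyl-CoA desaturase that makes monounsaturated fatty acids, CI livers had 14.37, 14.53, 15.36, 15.35 and 15.10 and T20 livers 12.85, 13.75, 14.06, 14.22 and 13.08. Every T20 liver was below every CI liver, with a difference of -1.35 ± 0.28 (adjusted p = 0.00881), which did not pass when only the 10 arrays were fitted (adjusted p = 0.0592).

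*Fasn*, fatty acid synthase, had CI values of 13.58, 13.59, 14.33, 13.87 and 11.80 and T20 values of 11.92, 11.99, 12.14, 11.18 and 11.12. CI replicate 5 lay within the T20 range, while the other 4 CI livers lay above it. The difference was -1.77 ± 0.47 (adjusted p = 0.0414), and a second probe set gave -1.74 (adjusted p = 0.0206). That call was lost without any one of T20 replicates 1, 2, 4 and 5 and CI replicates 1, 2, 3 and 4; over all arrays left out in turn the difference ran from -2.18 to -1.55 and the adjusted p from 0.00944 to 0.114. After median centring the adjusted p was 0.0509, and without C replicate 3 and CI replicate 3 it was 0.104. *Acly*, ATP citrate lyase, showed the same low liver: 14.64, 14.49, 14.81, 14.69 and 13.84 in CI against 13.61, 13.87, 13.61, 12.83 and 12.42 in T20. Its difference of -1.23 ± 0.29 passed (adjusted p = 0.021), but leaving out T20 replicate 4, T20 replicate 5 or CI replicate 4 gave 0.0605, 0.0647 and 0.0634, and leaving out C replicate 3 with CI replicate 3 gave 0.0552. The other members that fell, named after their values were seen, were *Acacb*, a second acetyl-CoA carboxylase, at -0.70 ± 0.18 (adjusted p = 0.0328), and *Pgd*, an NADPH-producing enzyme of the pentose phosphate pathway, at -0.69 ± 0.12 (adjusted p = 0.00159).

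Of 10 measured genes of fatty acid elongation and desaturation, 2 fell and 0 rose, with a median of -0.06, against 0.841% of all genes lower. *Fads2*, the delta-6 desaturase of polyunsaturated fatty acid synthesis, had 13.80, 14.03, 14.21, 13.66 and 13.41 in CI and 12.87, 12.59, 12.68, 12.82 and 13.28 in T20. The highest T20 liver stayed just below the lowest CI liver, and the difference was -0.97 ± 0.16 (adjusted p = 0.00137). *Elovl6*, an elongase that carries palmitate to stearate, had CI values of 9.98, 10.29, 10.60, 10.39 and 9.10 and T20 values of 9.27, 8.96, 9.37, 8.84 and 8.85. It fell by 1.02 ± 0.24 on the log2 scale (adjusted p = 0.0228) with CI replicate 5 again inside the T20 range, and its call was lost without any one of T20 replicates 4 and 5 and CI replicates 2, 3 and 4 (adjusted p up to 0.0771) and without C and CI replicates 3 together (0.0694).

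Neither of the main transcription factors of lipid synthesis on the panel passed in T20 minus CI. *Srebf1*, the sterol regulatory element binding factor that drives lipogenic genes, had 13.73, 13.51, 13.15, 12.84 and 12.18 in CI and 12.67, 13.19, 12.58, 12.43 and 12.36 in T20, with overlapping groups. Its difference was -0.44 ± 0.36 (adjusted p = 0.615). *Mlxipl*, the carbohydrate response element binding protein, had 10.27, 10.22, 10.21, 10.33 and 9.95 in CI and 9.39, 9.71, 9.99, 10.11 and 10.03 in T20, a difference of -0.35 ± 0.12 (adjusted p = 0.104). *Mlxipl* did pass without T20 replicates 4 and 5 (-0.50, adjusted p = 0.0362), and T20 minus C, which shares the T20 arrays, was -0.59 ± 0.12 (adjusted p = 0.0038). The same omission ended other calls, among them *Fasn* (-1.42, adjusted p = 0.187), *Acly* (-0.80, 0.178) and *Elovl6* (-0.87, 0.117). Among 22 measured lipogenic and sterol regulators 1 rose, *Nr1i3*, which encodes the xenobiotic receptor CAR, and 0 fell. Of all genes 1.41% passed as higher. *Nr1i3* was 8.81, 8.41, 10.003, 8.81 and 9.69 in CI and 10.49, 10.04, 10.12, 10.996 and 10.85 in T20. The T20 livers lay above the CI livers, with a difference of 1.36 ± 0.33 (adjusted p = 0.0255), and the call was lost without any one of T20 replicates 1, 4 and 5 and CI replicates 1, 2 and 4 (adjusted p up to 0.0796).

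**Figure D2:**
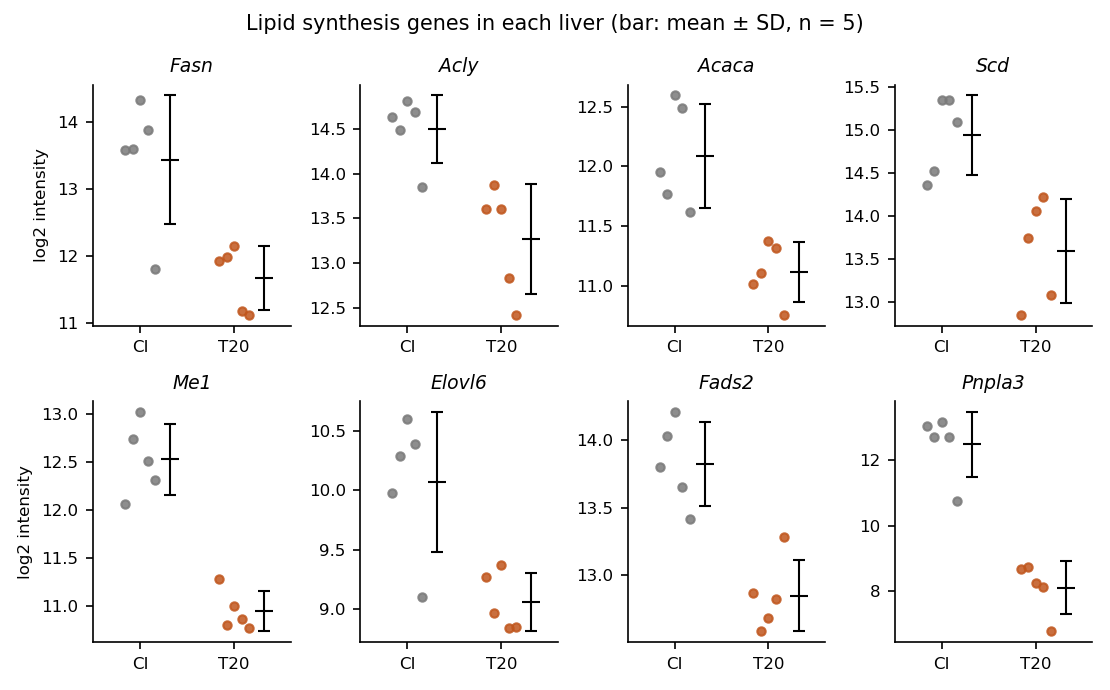
Log2 intensity of 8 lipid synthesis genes in each CI (grey) and T20 (orange) liver, ordered by replicate number, with the mean ± SD of 5 animals as bars; vertical axes differ between panels and do not start at 0. For *Me1*, *Acaca*, *Scd*, *Fads2* and *Pnpla3* the groups do not overlap, and the lowest CI point of *Fasn*, *Acly*, *Elovl6* and *Pnpla3* is CI replicate 5.

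*Pnpla3* had the second largest fall of any gene that passed. It encodes a lipid droplet protein with lipase and acyltransferase activity that is induced by feeding and lipogenic diets. CI livers had 13.05, 12.72, 13.18, 12.71 and 10.74, and T20 livers 8.68, 8.76, 8.24, 8.12 and 6.78. The groups were far apart: the highest T20 liver was below the lowest CI liver, and the difference was -4.36 ± 0.47, or 20.6-fold (adjusted p = 3.84e-06). All 3 probe sets of the gene were lower in every T20 liver, with differences of -2.89, -4.36 and -4.82. Leaving out 1 array at a time gave -4.80 to -4.03. The bases before its annotated start are shown because it is the gene of lipid storage that changed most; they lie at chr7:117173278-117173527 on the forward strand of GRCr8 in RefSeq, and capitals mark the GC box, GGGCGG, and the NF-Y box, which reads ATTGG when it lies on the reverse strand, with 4 matches in all.

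Pnpla3 upstream 250 bases: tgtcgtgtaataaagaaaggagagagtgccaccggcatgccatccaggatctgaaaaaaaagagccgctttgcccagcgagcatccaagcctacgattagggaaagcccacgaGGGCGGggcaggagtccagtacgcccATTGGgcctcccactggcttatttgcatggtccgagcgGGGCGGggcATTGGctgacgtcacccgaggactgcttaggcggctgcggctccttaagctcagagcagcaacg

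On both strands of the 250 bases before the start, the NF-Y box, CCAAT, was present in 34% of 33469 rat promoters and the GC box, GGGCGG, in 30.5%. The E-box, CACGTG, was present in 5.59% and a sterol regulatory element, TCACNCCAC, in 0.974%. No match of one marked motif overlaps another in the sequences printed. Of the 7 genes of the fatty acid synthesis list that fell, 5 had 1 promoter window each: the NF-Y box was in 3 of them, the GC box in 3, and the other motifs in 0. Over all genes named in the text by rule, 42 of 62 had 1 window. A match describes letters in the window and is no evidence of binding.

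In the wider list of triglyceride synthesis and lipid droplet genes, 5 of 21 fell and 1 rose, with a median of -0.03. Of all genes 0.841% passed as lower and 1.41% as higher. *Ddhd1*, a phospholipase, had 10.47, 10.65, 10.78, 10.22 and 9.58 in CI and 8.96, 9.16, 8.96, 9.34 and 8.93 in T20, without overlap, and fell by 1.27 ± 0.20 on the log2 scale (adjusted p = 0.000596). The gene that rose was *Ces1d*, a carboxylesterase that hydrolyses triglyceride, from 13.48, 13.49, 13.46, 12.99 and 13.003 in CI to 14.57, 14.30, 14.04, 14.05 and 13.81 in T20. Its difference was 0.87 ± 0.16 (adjusted p = 0.00378), and every T20 liver was above every CI liver. Smaller falls were those of *Ddhd2*, a related lipase, at -0.55 ± 0.14 (adjusted p = 0.0294), *Plin3*, a droplet coat protein, at -0.51 ± 0.13 (0.0328) and *Mgll*, monoacylglycerol lipase, at -0.49 ± 0.13 (0.0402); the last 2 were named after their values were seen. *Ddhd2* was not called without T20 replicate 1, 2 or 4 or CI replicate 3, 4 or 5 (adjusted p up to 0.0759), nor without C and CI replicates 3 together (0.0805). The number of members that fell was 2 after median centring and 2 without T20 replicate 4, CI replicate 3 or CI replicate 4.

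The hepatic sterol exporter rose while cholesterol synthesis had 0 calls. *Abcg5* and *Abcg8* encode the paired subunits of the transporter that moves sterols, including plant sterols, into bile. *Abcg8* had 7.34, 7.01, 6.17, 6.69 and 7.62 in CI, with a mean under 7.39, the level set as the filter on dim signals, and 9.72, 8.23, 9.69, 9.73 and 10.27 in T20. Its difference was 2.56 ± 0.42, or 5.90-fold (adjusted p = 0.000846). *Abcg5* had 9.19, 8.57, 7.78, 7.24 and 9.36 in CI and 10.46, 9.68, 10.74, 10.75 and 11.16 in T20, a difference of 2.13 ± 0.35, or 4.37-fold (adjusted p = 0.000918). For both genes every T20 liver was above every CI liver, and T20 replicate 2 was the lowest of the T20 livers. Both kept their call whichever array was left out.

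The annotated starts of these genes face away from each other across 205 bases, which are shown because both genes rose together. The stretch is chr6:15717731-15717935 of GRCr8, forward strand, with *Abcg5* beginning after its last base and *Abcg8*, on the reverse strand, before its first. Capitals mark the single CCAAT, which reads ATTGG on this strand and lies at position -13 from the *Abcg5* start.

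Abcg8 to Abcg5: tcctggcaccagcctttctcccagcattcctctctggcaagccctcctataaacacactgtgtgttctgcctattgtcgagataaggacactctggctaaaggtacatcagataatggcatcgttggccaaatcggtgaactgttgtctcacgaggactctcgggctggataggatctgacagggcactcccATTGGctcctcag

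Of 24 measured genes of sterol efflux and lipoproteins, 2 rose, which were the exporter genes, and 2 fell, with a median of 0.01. Of all genes 1.41% passed as higher and 0.841% as lower. The genes that fell were *Angptl4*, an inhibitor of lipoprotein lipase, and *Mttp*, the lipid transfer protein of lipoprotein assembly. *Angptl4* had 13.17, 13.12, 13.31, 12.62 and 13.04 in CI and 11.42, 12.04, 12.50, 12.09 and 11.96 in T20, a difference of -1.05 ± 0.23 (adjusted p = 0.0108). *Mttp* fell by 0.44 ± 0.08 on the log2 scale (adjusted p = 0.00402), from 12.98 to 13.44 in CI to 12.60 to 12.92 in T20. In both cases the T20 livers lay below the CI livers; *Mttp* did not pass once arrays were given the same median and spread (adjusted p = 0.074) or with the 10 arrays alone (0.0785). Of 18 measured genes of cholesterol synthesis and uptake 0 passed in limma, with a median of -0.02 and differences from -0.44 to 0.47.

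In bile acid synthesis and transport 1 of 19 genes rose, against 1.41% of all genes higher, and 0 fell, with a list median of 0.15. The gene that rose was *Cyp7a1*, the rate-limiting enzyme that turns cholesterol into bile acids. *Cyp7a1* had 7.67, 9.37, 9.12, 9.79 and 8.10 in CI and 13.27, 10.96, 10.45, 9.03 and 11.36 in T20. T20 replicate 1 was far above every other liver and T20 replicate 4 fell within the CI range. The difference was 2.20 ± 0.59 (adjusted p = 0.0445), and the call was lost without any one of the 10 arrays except T20 replicate 4, with a difference of 1.64 and an adjusted p of 0.133 without T20 replicate 1. It was also lost with no filter on dim probe sets (adjusted p = 0.0615), with array weights (0.0721), without C replicate 3 and CI replicate 3 (0.0609) and when the 10 arrays were fitted alone (0.163).

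*Hamp*, which encodes hepcidin, the liver hormone that limits iron uptake and release, had the largest difference of any gene that passed. CI livers had 12.30, 12.32, 13.92, 14.04 and 8.42, and T20 livers 7.72, 7.91, 7.41, 7.995 and 7.48. All T20 livers were below every CI liver, and CI replicate 5 was closest to them. The T20 values lie just above 7.39, the level of the filter on dim signals, so neither their spread nor the exact size of the fold can be read closely. The measured difference was -4.50 ± 0.87, or 22.6-fold (adjusted p = 0.00456), and it ran from -5.44 to -4.04 with 1 array left out. In the list of acute phase and iron genes it was the 1 of 30 that passed, against 2.25% of all genes, and the list median was 0.02. *A2m*, a protease inhibitor of the acute phase, had 8.70, 8.10, 9.10, 9.47 and 8.95 in CI and 10.21, 10.62, 8.80, 10.94 and 9.97 in T20. T20 replicate 3 lay within the CI range, and the test gave 1.25 ± 0.37 (adjusted p = 0.069), short of the threshold, although it did without that liver (adjusted p = 0.0153).

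Markers of pericentral hepatocytes, the cells around the central vein, were higher in T20. In that list 8 of 11 measured genes rose and 0 fell, with a median of 0.62, against 1.41% of all genes higher. *Slc1a2*, the glutamate transporter of pericentral cells, had 7.36, 6.998, 6.78, 7.38 and 6.67 in CI and 9.68, 8.39, 8.37, 8.46 and 8.52 in T20. The T20 livers lay above all CI livers, with T20 replicate 1 highest, and the difference was 1.65 ± 0.23 (adjusted p = 0.000128); the CI mean was below the filter level. *Slc13a3*, a dicarboxylate transporter, had 9.02, 8.73, 8.96, 8.49 and 8.56 in CI and 10.09, 9.85, 9.43, 9.98 and 10.74 in T20, a difference of 1.26 ± 0.18 (adjusted p = 0.000205). *Oat*, ornithine aminotransferase, had 12.42, 13.39, 12.11, 13.77 and 13.52 in CI and 14.77, 14.09, 13.96, 13.68 and 14.58 in T20. The groups of *Oat* overlapped through T20 replicate 4, and its difference was 1.17 ± 0.23 (adjusted p = 0.00584; 0.134 with the 10 arrays alone).

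*Cyp1a2*, a cytochrome P450 of pericentral cells that oxidises aromatic amines and caffeine, had 13.02, 13.18, 13.42, 12.99 and 13.15 in CI and 14.37, 13.67, 13.93, 14.40 and 14.59 in T20, with no overlap and a difference of 1.04 ± 0.16 (adjusted p = 0.000566). *Glul*, glutamine synthetase, the classic marker of the innermost pericentral layer, had 12.08, 12.19, 12.42, 12.35 and 12.03 in CI and 13.12, 12.43, 12.51, 12.86 and 12.90 in T20. It rose by 0.55 ± 0.12 (adjusted p = 0.0131), with an adjusted p of 0.0504 without T20 replicate 1; its other probe sets gave 0.63 and 0.44 and did not pass (adjusted p = 0.0812 and 0.0616). The remaining members that rose were *Cyp7a1*, with the limits given above, and, named after their values were seen, *Tbx3* (0.62 ± 0.11, adjusted p = 0.00159), a transcription factor, and *Gulo* (0.30 ± 0.08, adjusted p = 0.0419), an enzyme of vitamin C synthesis. The count of 8 was 5 without T20 replicate 1 and 3 with the 10 arrays alone.

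Summed intensities of the 11 pericentral markers ran from 93366.9 to 100790 in CI and from 119943 to 169425 in T20, without overlap. Periportal markers, which label the opposite end of the lobule, had 0 of 12 members passing in limma, against 2.25% of all genes. Their median was -0.01, with differences from -0.71 to 1.58. Their sums were 190420 to 219371 in CI and 183124 to 229630 in T20. In whole liver, more cells of a type and more RNA per cell cannot be told apart.

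**Figure D3:**
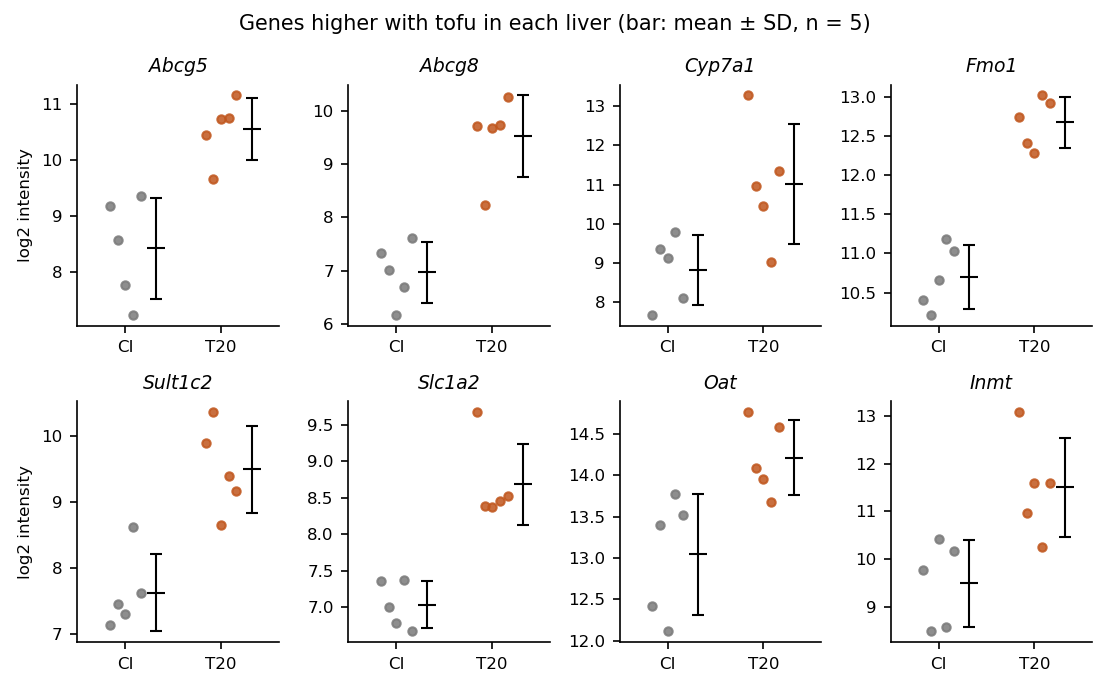
Log2 intensity of 8 genes that were higher in T20, in each CI (grey) and T20 (orange) liver ordered by replicate number, with the mean ± SD of 5 animals as bars; vertical axes differ between panels and do not start at 0. *Fmo1*, *Abcg5*, *Abcg8*, *Sult1c2* and *Slc1a2* separate the groups, whereas 1 T20 point of *Cyp7a1*, *Oat* and *Inmt* lies within the CI range.

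*Fmo1*, a flavin monooxygenase that oxidises nitrogen- and sulfur-containing compounds, had the smallest p of the comparison. CI livers had 10.41, 10.22, 10.67, 11.18 and 11.03 and T20 livers 12.74, 12.40, 12.28, 13.02 and 12.93. More than 1 unit separated the highest CI from the lowest T20 liver, and the difference was 1.97 ± 0.18, or 3.92-fold (adjusted p = 2.01e-07). Of 29 measured xenobiotic metabolism genes 3 rose, *Fmo1*, *Cyp1a2* and *Cyp2d4*, and 0 fell, with a median of 0.15, against 1.41% of all genes higher. *Cyp2d4* rose by 0.55 ± 0.12 (adjusted p = 0.0102; 0.0823 with the 10 arrays alone), from 10.45 to 10.87 in CI to 10.92 to 11.44 in T20, and a second probe set gave 0.63.

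Among 16 genes of isoflavone and steroid conjugation 1 rose and 1 fell, while of all genes 1.41% passed as higher and 0.841% as lower. *Sult1c2*, a cytosolic sulfotransferase, had 7.13, 7.47, 7.30, 8.63 and 7.63 in CI and 9.90, 10.37, 8.66, 9.40 and 9.17 in T20. The lowest T20 liver was just above the highest CI liver, and the difference was 1.87 ± 0.39 (adjusted p = 0.00788). *Sult2a6*, a hydroxysteroid sulfotransferase, went the other way, from 10.21, 11.73, 11.001, 11.38 and 10.59 in CI to 9.52, 10.34, 8.86, 8.43 and 9.14 in T20. The groups overlapped, and the difference of -1.72 ± 0.41 (adjusted p = 0.0217) did not pass without any one of T20 replicates 3 and 4 and CI replicates 2 and 4 (adjusted p up to 0.0706). In the list of glutathione metabolism and NRF2 targets 2 of 30 genes rose and 0 fell: *Gstm7*, a glutathione transferase, by 0.93 ± 0.15 (adjusted p = 0.000566), and *Gstm2*, another, by 0.76 ± 0.20 (adjusted p = 0.0418), which was not called without any one of the arrays other than CI replicates 1 and 4 (adjusted p up to 0.116), nor without C and CI replicates 3 together (0.07). Members of these enzyme families are close in sequence, and whether their probe sets tell them apart was not tested.

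*Cyp17a1*, the steroid 17-hydroxylase, was lower in T20 in a narrow band: 11.14, 11.26, 11.04, 10.88 and 10.71 in CI and 9.85, 9.35, 9.67, 9.87 and 9.79 in T20. The difference was -1.30 ± 0.24 (adjusted p = 0.00246), without overlap, and the call held whichever array was left out.

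Of 41 measured genes of amino acid catabolism and the urea cycle, 37 did not pass, 4 rose and 0 fell, with a median of 0.09, against 1.41% of all genes higher. Those that rose were *Oat* and *Glul*, described above, *Gpt* and *Hpd*. *Hpd*, a dioxygenase of tyrosine breakdown, had 14.90, 14.91, 15.002, 15.01 and 14.85 in CI and 15.51, 15.30, 15.27, 15.29 and 15.46 in T20. The change was small but the livers of each group lay close together, with a difference of 0.43 ± 0.07 (adjusted p = 0.000831). *Gpt*, alanine aminotransferase, rose by 0.82 ± 0.22 (adjusted p = 0.0463), a call lost without any one of the arrays other than CI replicates 3 and 5 (adjusted p up to 0.115) and after quantile normalization (0.0716).

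In the methionine cycle and methyl transfer list 2 of 25 genes rose and 0 fell. Of all genes 1.41% passed as higher and 0.841% as lower. *Mat2a*, the mainly extrahepatic catalytic subunit of S-adenosylmethionine synthetase, had 9.87, 9.86, 9.71, 9.56 and 9.25 in CI and 10.38, 11.07, 10.57, 10.97 and 10.10 in T20. The groups did not overlap, and the difference was 0.97 ± 0.18 (adjusted p = 0.00344); a second probe set gave 0.64 and did not pass (adjusted p = 0.0709). *Inmt*, a methyltransferase acting on indoleamines, had 9.78, 8.48, 10.43, 8.58 and 10.18 in CI and 13.09, 10.97, 11.60, 10.26 and 11.61 in T20. T20 replicate 4 lay within the CI range, and the difference was 2.02 ± 0.45 (adjusted p = 0.0131), with adjusted p of 0.0504 without T20 replicate 1 and 0.0584 without CI replicate 4. *Asns*, asparagine synthetase, a target of the amino acid deprivation response, had 7.33, 7.20, 7.34, 7.60 and 6.72 in CI and 7.17, 8.03, 7.84, 8.06 and 7.90 in T20, with a CI mean below the filter level, and its test gave 0.56 ± 0.24 (adjusted p = 0.232). Of 28 amino acid response genes 0 rose and 2 fell: *Nupr1*, a stress-induced nuclear protein, at -0.78 ± 0.17 (adjusted p = 0.0111; 0.0563 without CI replicate 4), and *Slc6a9*, a glycine transporter, at -0.45 ± 0.12 (adjusted p = 0.0399). The *Slc6a9* call was lost without T20 replicate 1, 2 or 5 or CI replicate 3 or 4 (adjusted p up to 0.119) and after median centring (0.0996), and the adjusted p was 0.112 without C and CI replicates 3 together. Its other probe sets gave -0.35 and -0.49 and did not pass (adjusted p = 0.0546 and 0.0717).

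In a list of fatty acid oxidation and PPAR-alpha target genes 3 of 33 were lower and 0 higher, with a median of -0.17, against 0.841% of all genes lower. *Pdk4*, the kinase that inactivates pyruvate dehydrogenase, had 12.52, 11.84, 11.72, 12.32 and 12.06 in CI and 10.12, 10.57, 10.94, 11.26 and 10.17 in T20, a difference of -1.48 ± 0.30 without overlap (adjusted p = 0.00579). A second *Pdk4* probe set gave a smaller difference, -0.65 (adjusted p = 0.0467). *Acot2*, a mitochondrial acyl-CoA thioesterase, fell by 0.68 ± 0.14 on the log2 scale (adjusted p = 0.00621; 0.0716 with the 10 arrays alone), with further probe sets at -0.83 (adjusted p = 0.0222) and -0.47 (0.282). *Decr1*, which handles unsaturated fatty acids in beta-oxidation, fell by 0.50 ± 0.12 (adjusted p = 0.025). The *Decr1* call was lost without any one of T20 replicates 3, 4 and 5 and CI replicates 2 and 3 (adjusted p up to 0.0786) and without C and CI replicates 3 together (0.0765). *Cpt1a*, which admits long-chain fatty acids to mitochondria, had 12.98, 13.11, 13.45, 13.16 and 13.81 in CI and 12.77, 12.81, 12.78, 13.11 and 14.16 in T20. The groups overlapped and the difference was -0.18 ± 0.29 (adjusted p = 0.828).

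Further genes with large differences had no list in common. *Alox15*, a lipoxygenase, had 9.42, 9.01, 9.02, 9.52 and 9.08 in CI and 11.09, 9.54, 11.33, 10.58 and 12.18 in T20, a difference of 1.73 ± 0.31 (adjusted p = 0.00259; 0.0612 with the 10 arrays alone). *Nat8*, an N-acetyltransferase, rose by 1.49 ± 0.30 (adjusted p = 0.00657), and *LOC102554026* by 1.38 ± 0.15 (adjusted p = 4.83e-06), from 8.93 to 9.53 in CI to 10.37 to 10.68 in T20. In these 3 genes every T20 liver was above every CI liver. *Pcp4l1* rose by 1.48 ± 0.35 (adjusted p = 0.0222; 0.0649 at most with 1 array left out). *Irs3*, an insulin receptor substrate, fell by 0.98 ± 0.25 on the log2 scale (adjusted p = 0.0346; up to 0.0981), *Smc4*, a condensin subunit, by 1.09 ± 0.26 (0.022; up to 0.0895) and *Grpca* by 1.18 ± 0.30 (0.0312; up to 0.0797). *Clock*, a core clock transcription factor, fell by 0.59 ± 0.15 (adjusted p = 0.0378; up to 0.128), and *Sdf2l1*, an endoplasmic reticulum chaperone component, rose by 0.52 ± 0.13 (adjusted p = 0.0318; up to 0.0861). The *Smc4* mean in T20 and the *Pcp4l1* mean in C were below the filter level. Those upper values are the highest adjusted p with 1 array left out. The arrays whose removal ended a call were T20 replicate 4 and CI replicates 2 and 5 for *Pcp4l1*, T20 replicates 3 and 5 and CI replicate 4 for *Smc4*, and T20 replicates 1 and 5 and CI replicates 4 and 5 for *Clock*. For *Irs3* they were all but T20 replicate 3 and CI replicate 5, for *Grpca* all but T20 replicates 2 and 5 and CI replicate 3, and for *Sdf2l1* all but T20 replicate 4 and CI replicates 1 and 3. Without C and CI replicates 3 together, the adjusted p was 0.0609 for *Irs3*, 0.0506 for *Clock* and 0.0534 for *Sdf2l1*. A second *Pcp4l1* probe set gave 1.20 and did not pass (adjusted p = 0.0654). Further *Clock* probe sets gave -0.53 (adjusted p = 0.0356) and -0.38 (0.122), the latter not passing.

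**Figure D4:**
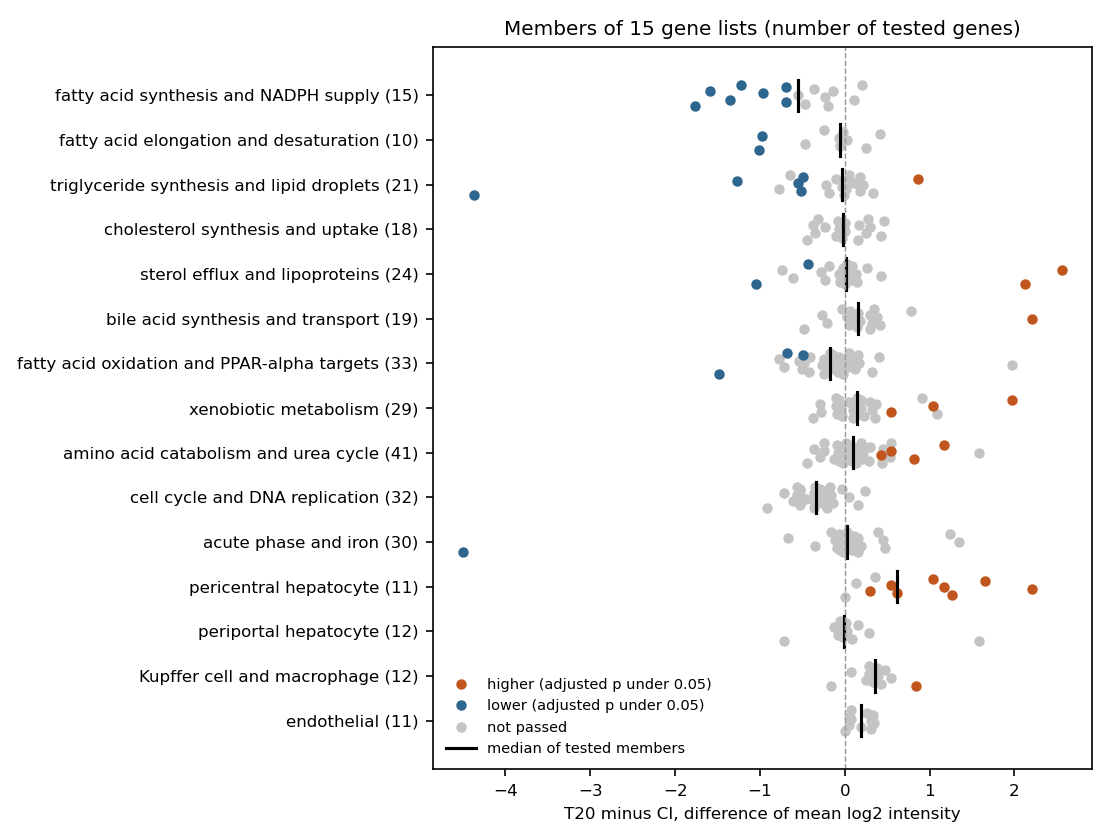
T20 minus CI difference of mean log2 intensity (horizontal axis) for each measured member of 15 gene lists, with members that passed as higher in orange, as lower in blue and the rest in grey; the bar is the list median and the number in brackets the members tested. The medians are -0.55 for fatty acid synthesis, 0.62 for pericentral hepatocyte markers and -0.02 for cholesterol synthesis.

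The part of isoflavone alone was measured by CI minus C, which equals the difference between T20 minus C and T20 minus CI. In limma 0 of 18625 probe sets passed (0%), while 1605 had an unadjusted p under 0.05, and the smallest adjusted p was 0.134. A p that misses the threshold does not show that the diets acted alike: the count was 3 without C replicate 5, 1 without C replicate 1, 1 with no filter and 4 with array weights. The 3 genes of smallest p were *Bpifa5* at 0.97 ± 0.18, *Hsd11b1*, the enzyme that regenerates active glucocorticoid, at 0.54 ± 0.10, and *Frmpd2* at 1.14 ± 0.23, each with an adjusted p of 0.134. *Hsd11b1* had 14.28, 13.77, 13.99, 14.09 and 14.43 in C and 14.70, 14.46, 14.69, 14.66 and 14.76 in CI, and every CI liver was above every C liver. In T20 its values were 15.01, 15.13, 14.77, 14.71 and 14.73, and T20 minus CI was 0.22 ± 0.10 (adjusted p = 0.287). *Frmpd2* was 7.52, 6.77, 7.22, 6.41 and 7.41 in C, 7.90, 8.22, 8.07, 8.41 and 8.45 in CI and 7.18, 7.80, 7.53, 7.11 and 6.80 in T20, with C and T20 means below the filter level. It fell by 0.93 ± 0.23 between CI and T20 (adjusted p = 0.0255; up to 0.0777 without T20 replicate 1, 4 or 5 or CI replicate 4 or 5, each of which ended the call), and T20 minus C was 0.22 ± 0.23 (adjusted p = 0.63).

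T20 minus C, in which 4.86% of genes passed, shares the T20 arrays with the main comparison and gave these values for the leading genes: -3.96 ± 0.47 for *Pnpla3*, 2.04 ± 0.18 for *Fmo1*, 2.09 ± 0.35 for *Abcg5* and -1.76 ± 0.19 for *Me1*. Their CI minus C differences were 0.40 ± 0.47, 0.07 ± 0.18, -0.04 ± 0.35 and -0.17 ± 0.19, and none of these passed (adjusted p = 0.837, 0.938, 0.984 and 0.819). *Hamp* had 11.05, 8.10, 9.77, 11.36 and 10.12 in C, between the CI and T20 means, and T20 minus C was -2.38 ± 0.87 (adjusted p = 0.111). CI minus C for *Hamp* was 2.12 ± 0.87 (adjusted p = 0.497), so the difference between the casein diets did not pass. *Cyp17a1* had 10.08, 10.24, 10.39, 9.56 and 10.31 in C, all below every CI liver, and T20 minus C was -0.41 ± 0.24 (adjusted p = 0.334). CI minus C for *Cyp17a1* was 0.89 ± 0.24 (adjusted p = 0.379).

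Tofu was set against soy protein at the same isoflavone level through T20 minus SI, which equals the difference between T20 minus CI and SI minus CI. In this test 653 probe sets passed (3.51%) and 3508 had an unadjusted p under 0.05; by gene, 431 of 10699 passed (4.03%), 185 higher in T20 (1.73%) and 246 lower (2.3%). The count depended on single arrays: leaving out SI replicate 2, 4 or 5 gave 228, 432 or 397 probe sets, leaving out T20 replicate 1 or 2 gave 268 or 382, and leaving out SI replicate 3 gave 1026. It also depended on the fit, with 39 from the 10 arrays alone, and scaling moved its split to 144 higher and 649 lower after median centring. Of the 241 genes that passed T20 minus CI, 38 passed this test; both share the T20 arrays, so nothing is read from that share against 4.03%. Of the 52 named by rule, 39 did not pass, among them *Pnpla3*, *Fmo1*, *Sult1c2*, *Me1*, *Slc1a2*, *Slc13a3*, *Nat8*, *Pdk4*, *Ddhd1*, *Fads2*, *Cyp17a1*, *Ces1d* and *Nr1i3*. The 13 that passed were *Abcg8*, *Inmt*, *Alox15*, *LOC102554026*, *Oat*, *Cyp2d4*, *Cd14* and *Rgs5*, higher in T20, and *Hamp*, *Mttp*, *Mat2a*, *Nupr1* and *Acaca*, lower. *Pnpla3* had 8.97, 8.62, 7.27, 7.46 and 8.11 in SI, which overlapped T20, and a difference of 0.03 ± 0.47 (adjusted p = 0.985). *Fmo1* had 12.62, 12.44, 12.54, 13.002 and 12.74 in SI, T20 minus SI of 0.00 ± 0.18 (adjusted p = 0.995) and SI minus CI, where 12.5% of all genes passed, of 1.97 ± 0.18. T20 minus SI for *Me1* was 0.26 ± 0.19 (adjusted p = 0.479).

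Both sterol exporter genes had higher means with tofu than with soy protein, close to the threshold of the test. *Abcg8* had 7.13, 7.55, 8.25, 8.004 and 8.56 in SI, overlapping T20 through T20 replicate 2, and T20 minus SI was 1.63 ± 0.42 (adjusted p = 0.0261). *Abcg5* had 9.11, 9.10, 9.48, 9.40 and 9.65 in SI, below every T20 liver, with T20 minus SI of 1.21 ± 0.35 (adjusted p = 0.0502), which did not pass. *Cyp7a1* had 10.46, 10.31, 9.70, 9.98 and 9.94 in SI, inside the T20 range, and a difference of 0.94 ± 0.59 (adjusted p = 0.405). Tofu livers were also lower than SI livers in part of lipid synthesis. Of 15 genes that make fatty acids or supply NADPH, 3 passed as lower in T20 and 0 as higher. In the same test 2.3% of all genes passed as lower and 1.73% as higher. *Acaca* was 1 of them, at -0.74 ± 0.18 (adjusted p = 0.0209). *Fasn* (-1.05 ± 0.47, adjusted p = 0.212), *Scd* (-0.86 ± 0.28, 0.0829) and *Acly* (-0.93 ± 0.29, 0.0696) did not pass. Of 21 triglyceride and droplet genes, 2 passed as lower and 0 as higher, against the same shares of all genes. *Mttp* was lower by a difference of -0.33 ± 0.08 (adjusted p = 0.0254).

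*Oat* moved in opposite directions from CI in the tofu and soy protein livers. *Oat* had 12.56, 12.27, 11.99, 12.03 and 12.55 in SI, below every T20 liver, with T20 minus SI of 1.93 ± 0.23 (adjusted p = 3.96e-05). *Inmt* had 7.88, 7.84, 9.16, 7.99 and 8.82 in SI, again below every T20 liver, with T20 minus SI of 3.17 ± 0.45 (adjusted p = 0.00024). SI minus CI was -0.76 ± 0.23 for *Oat* (adjusted p = 0.0334) and -1.15 ± 0.45 for *Inmt* (adjusted p = 0.0884), the latter not passing. *Alox15* had 9.15, 8.80, 9.43, 8.87 and 9.04 in SI, near the CI values, and T20 minus SI was 1.89 ± 0.31 (adjusted p = 0.00114). *Acsl4*, an acyl-CoA synthetase for arachidonic acid, completed the 5 genes most higher in T20 than in SI, at 1.24 ± 0.18 (adjusted p = 0.000266), and its T20 minus CI difference was -0.25 ± 0.18 (adjusted p = 0.534).

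*Mat2a* rose in both but less with tofu: it had 11.90, 12.43, 12.19, 12.17 and 11.78 in SI, above every T20 liver, with T20 minus SI of -1.48 ± 0.18 (adjusted p = 3.96e-05) and SI minus CI of 2.45 ± 0.18. *Asns* had 8.40, 8.75, 8.46, 9.28 and 9.83 in SI, and T20 minus SI was -1.14 ± 0.24 (adjusted p = 0.00832). For both genes of amino acid and methyl metabolism the SI livers were the highest of the 4 diets compared. The genes most lower in T20 than in SI were *Hamp* at -5.23 ± 0.87 (adjusted p = 0.00114), *A2m* at -1.87 ± 0.37 (0.00568), *Aldh1b1*, a mitochondrial aldehyde dehydrogenase, at -1.64 ± 0.19 (3.96e-05), *Cdkn1a*, a cell cycle inhibitor, at -1.52 ± 0.43 (0.0433) and *Mat2a*. *Hamp* in SI was 9.35, 14.03, 13.28, 13.14 and 14.90, so that every SI liver lay above every T20 liver. *Aldh1b1* had 12.003, 12.57, 11.84, 12.43 and 11.75 in SI against 10.20, 10.75, 10.16, 10.97 and 10.32 in T20, and its T20 minus CI difference was -0.06 ± 0.19 (adjusted p = 0.919).

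**Figure D5:**
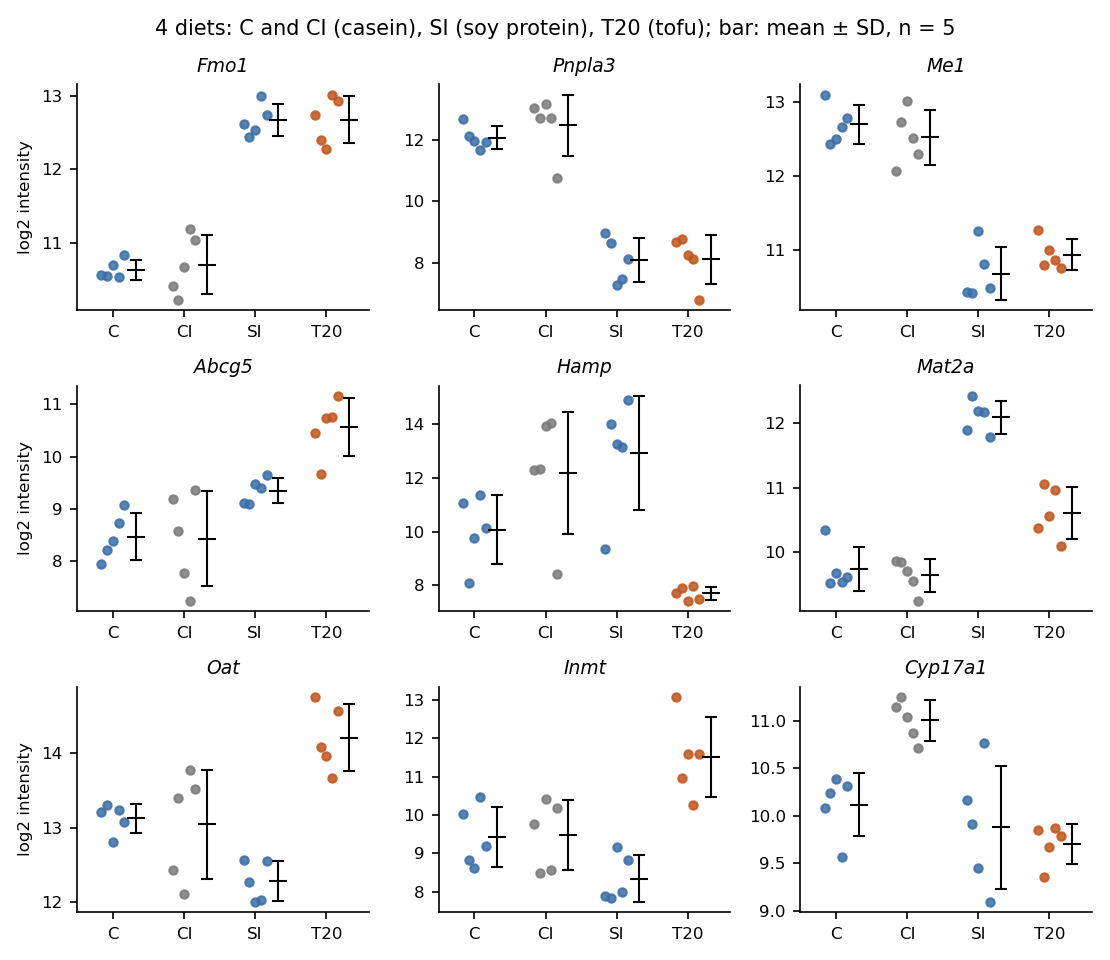
Log2 intensity of 9 genes in each liver on the C, CI, SI and T20 diets, ordered by replicate number, with the mean ± SD of 5 animals as bars; vertical axes differ between panels and do not start at 0. SI and T20 overlap for *Fmo1*, *Pnpla3* and *Me1*, T20 is above SI for *Abcg5*, *Oat* and *Inmt* and below it for *Hamp* and *Mat2a*, and *Cyp17a1* has its highest mean in CI.

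Marker lists of other cell types were checked beside these results. Of all genes 1.41% passed as higher and 0.841% as lower, and 5674 of 10699 had a difference above 0. Of 12 measured Kupffer cell and macrophage markers 1 rose, *Cd14*, the coreceptor for lipopolysaccharide, and 11 of 12 had a difference above 0, with a median of 0.35; their summed intensity was 29860.7 to 37946 in CI and 38809.3 to 52475.1 in T20, without overlap. *Cd14* had 10.75, 10.79, 10.90, 10.89 and 10.53 in CI and 11.77, 11.27, 11.69, 11.57 and 11.74 in T20, a difference of 0.84 ± 0.21 (adjusted p = 0.0283; up to 0.0727 with 1 array left out, and called only without T20 replicate 2 or CI replicate 2 or 3). Of 13 stellate and fibroblast markers 1 rose, *Rgs5*, a pericyte marker, from 7.75, 7.57, 7.65, 7.93 and 8.002 in CI to 8.79, 8.25, 8.69, 8.63 and 8.69 in T20, a difference of 0.83 ± 0.13 (adjusted p = 0.00047). Its T20 minus SI difference was 0.91 ± 0.13 (adjusted p = 0.00024), and T20 livers were above every CI and SI liver. *Fabp2*, an intestinal fatty acid binding protein in the list of intestine and kidney markers, fell by 0.94 ± 0.22 on the log2 scale (adjusted p = 0.022; up to 0.0663 without T20 replicate 5 or CI replicate 4 or 5, each of which ended the call). In limma 0 of 11 endothelial, 6 lymphocyte, 4 bile duct, 6 blood, 4 adipose, 3 exocrine pancreas and 11 hepatocyte markers passed. All 11 endothelial markers had a difference above 0, with a median of 0.19, as did 5 of 6 lymphocyte markers (median 0.24) and 5 of 6 blood markers (median 0.29). Summed intensities ran from 15089.5 to 19097.7 in CI and from 18591.5 to 21230.1 in T20 for endothelial markers, and from 1300.5 to 1651.7 and 1546.7 to 1909.6 for lymphocyte markers, both overlapping. For blood markers the sums went the other way, from 34541.5 to 45390.8 in CI and from 29008.2 to 46238.8 in T20. Their median was 39525.1 in CI and 35329.5 in T20. At the list median CI itself lay below C. CI minus C was -0.26 for Kupffer cell and macrophage, -0.23 for lymphocyte, -0.15 for blood and -0.09 for endothelial markers. What part these cell markers have in the differences of other genes was not tested.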

How the data were processed

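Liver RNA of 30 rats was hybridised to rat expression arrays, 1 array per animal, and 10 of them, 5 T20 and 5 CI, form the comparison described. The deposited values are intensities per probe set, summarised and normalized by the authors with SuperNORM, per the labels; the sources used here do not state their scale, and it was read from the values as linear. Each intensity was raised to a floor of 16 and taken to log2. Of 31099 probe sets 57 controls were set aside, and the 18625 with a mean above the 40th percentile of the rest were tested. A model of 1 mean per diet was estimated over the 30 arrays by limma 3.58.1 under R 4.3.3 (variance trend, two-sided, 24 residual degrees of freedom), and p-values were adjusted by Benjamini-Hochberg over all probe sets of a comparison. A gene is its brightest tested probe set among those annotated with 1 symbol. Of the probe sets other than controls 20826 had 1 symbol, 436 several and 9780 none. The 32 gene lists and the comparison were chosen with earlier results of these data known, so no list is independent evidence. Genes named by rule were the 12 most higher and 12 most lower that passed, up to 4 passing members of each list, a fixed panel, and 5 higher and 5 lower (or the 3 of smallest p) in each further comparison; others are said to be named after their values were seen. Replicate numbers were not taken as pairs. On simulated arrays with 200 changed probe sets among 18625, the T20 minus CI test recovered 57.8% of 1.5-fold, 85.5% of 2-fold and 98.6% of 4-fold changes, with 10 false among 173 calls. The simulated noise was normal, independent between probe sets and of the same spread in every diet. In the data spreads could differ, as for *Hamp*, with an SD of 2.27 in CI and 0.25 in T20. These shares therefore need not hold for the real arrays. The number of arrays limits the precision. Figures were drawn with matplotlib 3.10.9 in Python 3.11.15, and promoter windows came from RefSeq on GRCr8.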

Additional observations from a re-analysis of the deposited data

Results flagged for a closer look

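Among the 124 groups of 5 livers formed by the 62 genes named by rule in CI and T20, 7 had a liver standing apart from the other 4, its gap to the nearest being more than 0.71 of the group's range; chance gives about 1 in 20. In T20, *Abcg8* was 8.23 in replicate 2 against 9.69 to 10.27 in the others, *Slc1a2* was 9.68 in replicate 1 against 8.37 to 8.52, and *Asns* was 7.17 in replicate 1 against 7.84 to 8.06. *Cpt1a* was 14.16 in T20 replicate 5 against 12.77 to 13.11, and *Sdf2l1* was 12.69 in T20 replicate 4 against 12.77 to 12.78. In CI, *Pnpla3* was 10.74 in replicate 5 against 12.71 to 13.18, and *Cdkn1a* was 12.46 in replicate 3 against 10.46 to 10.73. CI replicate 5 was also the lowest CI liver for *Fasn*, *Acly*, *Acaca*, *Elovl6*, *Fads2*, *Ddhd1*, *Irs3* and *Hamp*, and the cause was not tested.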

How the results depend on the processing

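For T20 minus CI the 394 probe sets became 131 when the 2 groups were fitted alone and 176 to 388 with 1 array left out. For T20 minus SI the 653 became 39 with the compared groups alone, 1290 without T20 replicates 4 and 5, and 228 to 1026 with 1 array left out. For CI minus C the 0 became 1 with no filter, 4 with array weights, and 0 to 3 with 1 array left out. Other settings kept these counts within 1.5 times, though scaling moved the split: T20 minus CI gave 245 higher and 110 lower after median centring, 219 and 92 with equal median and spread, and 254 and 215 after quantile normalization, and T20 minus SI gave 144 and 649, 123 and 764, and 309 and 487. A block on the replicate number gave 541 probe sets for T20 minus CI; the numbers do not pair the samples, since same-numbered livers had correlations of deviations from -0.083 to 0.165 and 1 of 5 matched its own number best. Of the 52 passing genes named by rule, 29 kept their call without any single array, and 23 of them under all other alternatives in which they were tested too. *Abcg8*, *Slc1a2* and *Rgs5*, counted there, were tested in 13 of the 14, since a filter at the 60th percentile removed them. The direction of *Aldh1b1*, a gene that did not pass, turned to 0.0059 without T20 replicate 1, 0.0158 without T20 replicate 3, and 0.0396 without CI replicate 3 and with C replicate 3 left out together with it; with 1 array left out it ran from -0.186 to 0.0396. Leaving out T20 replicates 4 and 5 together ended calls at adjusted p from 0.0707 to 0.187. Those lost among higher genes were *Pcp4l1*, *Nr1i3*, *Gstm2*, *Gpt*, *Glul*, *Sdf2l1* and *Cd14*. Among lower genes they were *Fasn*, *Sult2a6*, *Acly*, *Grpca*, *Smc4*, *Elovl6*, *Ddhd2*, *Decr1*, *Irs3*, *Clock*, *Fabp2* and *Frmpd2*. The cause of these changes was not tested. Group means below the filter level of 7.39 limit *Abcg8* and *Slc1a2* in C and CI, *Asns* in CI, *Pcp4l1* in C, *Smc4* in SI and T20, and *Frmpd2* in C and T20, and *Hamp* in T20 (7.70) lies close to it.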

Other observations

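Of all genes 2.25% passed in T20 minus CI, and 5674 of 10699 had a difference above 0. Cell cycle genes had no call in limma (0 of 32 measured), and 29 of the 32 had a T20 minus CI difference below 0, with a list median of -0.34. That median was -0.05 without T20 replicates 4 and 5 and -0.44 without CI replicate 5. The lowest member was the cell cycle inhibitor *Cdkn1a*, at -0.92. The condensin gene *Smc4*, which passed as lower, is not in the list.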
